A study of Mus musculus with 20 samples.

Results

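The genes described here belong to methionine and one-carbon metabolism in the liver: Mat1a, Mat2a, Gnmt, Bhmt, Ahcy, Cbs, Pemt, Shmt1, Shmt2 and Mthfd1. They were taken as a fixed list of 10 symbols, which was chosen with earlier results of these data known. Each was read from the brightest array probe set that the platform annotation names with that symbol alone. For 9 of the 10 genes there was such a probe set, out of 18193 genes named on the array in all. All 9 exceeded 16 intensity units on all 20 arrays and were tested among 8774 genes; Mat2a, which encodes the enzyme of most tissues outside the liver, is not analysed here. Total RNA of liver from 20 male mice, 50 to 60 days old and on a mixed BL6/SV129 background, was measured on Affymetrix arrays, 1 array per mouse. There were 5 mice in each of 4 groups, MCAD-/- given lipopolysaccharide (LPS), wild type given LPS, MCAD-/- given vehicle and wild type given vehicle. MCAD-/- mice lack medium-chain acyl-CoA dehydrogenase, the product of Acadm, which starts the mitochondrial oxidation of medium-chain fatty acids. LPS, a part of the outer membrane of certain bacteria that sets off inflammation, was injected at 100 µg per 20 g body weight. All mice, the vehicle groups included, were then fasted for 12 h. No label states that mutant and wild type mice shared litters, so effects of the mixed background and of the knockout cannot be told apart.

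Methionine metabolism turns dietary methionine into S-adenosylmethionine, the methyl donor of most methylation reactions, and the liver carries most of this flux in the body. Methyl transfer leaves S-adenosylhomocysteine and then homocysteine, which is either remethylated to methionine or drawn off to cysteine and glutathione by transsulfuration. Folate enzymes supply one-carbon units from serine and glycine to remethylation and to nucleotide synthesis, in cytosol and mitochondria.

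The arrays followed their genotype labels. With LPS, Acadm read 14.3 to 218 units in MCAD-/- mice, against 1449.9 to 2375 units in wild type. With vehicle it read 9.03 to 80.2 units in MCAD-/- mice, against 3106 to 4022 units in wild type. Hepatocyte markers were bright on every array, while the T and B cell and bile duct markers stayed under 16 units throughout. Of 4 pancreas markers, Cela1 exceeded 16 units on all 20 arrays (mean 199 units), and Prss2, Pnliprp1 and Cpa1 did so on none. Cela1 was called lower with LPS in MCAD-/- (log2 change -1.46) and in wild type (-1.02). With LPS it was also called lower in MCAD-/- than in wild type (-0.5). A pair of arrays stood apart in the log2 ratio of the 3' to the 5' actin control. Wild type LPS replicate 4 had 3.69 and wild type vehicle replicate 3 had 3.18. The other 18 arrays had between 1.35 and 2.34. Results were also computed without both arrays.

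The promoters of Shmt1, the cytosolic serine enzyme, and Bhmt, a methionine enzyme, are shown because both transcripts fell with LPS in both genotypes and these windows held the most matches to a GC box and to a nuclear receptor core motif. Each is the 250 bases before the RefSeq start site on the GRCm38.p6 build, on the minus strand, written 5′ to 3′ on the gene's strand. Capitals mark every match on either strand to the GC box GGGCGG, the CCAAT box CCAAT, the nuclear receptor core motif AGGTCA or the E-box CACGTG. A pair of GC boxes in Shmt1 shares a base.
Shmt1, chr11:60811266-60811515: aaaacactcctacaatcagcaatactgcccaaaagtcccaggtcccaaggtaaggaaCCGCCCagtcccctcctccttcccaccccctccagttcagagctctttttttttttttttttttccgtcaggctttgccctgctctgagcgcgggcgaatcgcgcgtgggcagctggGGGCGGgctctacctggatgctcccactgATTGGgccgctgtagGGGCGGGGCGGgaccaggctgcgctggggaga
Bhmt, chr13:93637759-93638008: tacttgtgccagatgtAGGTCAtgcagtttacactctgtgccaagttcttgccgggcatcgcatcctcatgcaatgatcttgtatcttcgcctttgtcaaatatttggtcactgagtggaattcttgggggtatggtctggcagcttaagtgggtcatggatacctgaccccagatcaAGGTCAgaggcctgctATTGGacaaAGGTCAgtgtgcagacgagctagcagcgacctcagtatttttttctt
The Shmt1 window held 4 GC boxes and 1 CCAAT box, and the Bhmt window 3 nuclear receptor core motifs and 1 CCAAT box. RefSeq windows were given for 9 of the 10 genes (10 windows, since Pemt has 2 start sites). Mat2a, not measured here, had a window, and Mat1a had none. A GC box stood in 5 of them, against 32.75% of all 32841 windows. A CCAAT box stood in 8, against 33.86%, the nuclear receptor core motif in 4, against 14.03%, and the E-box in 1, that of Cbs, against 6.02%. The Shmt2 window and the Pemt window at 60037006-60037255 held none of the 4 motifs. These matches are descriptions of letters and not binding sites.

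LPS lowered most of these genes in both genotypes, and the folate enzymes among them most. In MCAD-/- mice 7 of the 9 fell and 0 rose, where 27.6% of all tested genes fell and 38.1% rose. In wild type mice 8 of 9 fell and 0 rose, where 24.0% of all genes fell and 40.0% rose. The same 6 genes, Gnmt, Bhmt, Ahcy, Shmt1, Shmt2 and Mthfd1, fell in both genotypes, which 20.5% of all genes did. The median log2 change of the 9 members was -0.74 in MCAD-/- and -0.57 in wild type, beside medians over all genes of 0.14 in MCAD-/- and 0.18 in wild type. In whole liver RNA fewer cells of a type and less RNA per cell cannot be told apart, and both injections were followed by the same fast.

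Markers of other cell types also changed with LPS. The summed level of 7 neutrophil markers was 2740 to 3270 units in MCAD-/- mice with LPS, against 35.2 to 208 units with vehicle, and 1863 to 3959 units in wild type mice with LPS, against 36.6 to 110 units with vehicle. All 4 tested neutrophil markers were called higher with LPS in both genotypes. Of these, Mmp8 and Ngp exceeded 16 units on 10 of the 20 arrays, S100a8 on 12 and S100a9 on 13. They entered the test largely through arrays where they were high, so the direction of this count was set in part by the filter. Cxcr2, Camp and Csf3r were under 16 units on all arrays. S100a8 and S100a9, with means of 683 and 680 units over all arrays, were by far the brightest markers in the neutrophil sums. The summed level of 7 hepatocyte markers was 102198 to 103868 units in MCAD-/- mice with LPS, against 111355 to 120530 units with vehicle, and 102385 to 106645 units in wild type mice with LPS, against 112467 to 119385 units with vehicle. Of these 7, 6 fell and 1 rose in MCAD-/- (median log2 change -0.23), and 5 fell and 1 rose in wild type (median -0.19). Of the Kupffer and macrophage markers 8 of 9 fell and 1 rose in MCAD-/- (median -1.53). In wild type 6 fell and 1 rose (median -0.79). Vsig4 and Marco exceeded 16 units on 10 of the 20 arrays, so the filter may have set this count in part too. Of the endothelial markers 5 of 8 fell and 2 rose in MCAD-/-, whereas 1 fell and 4 rose in wild type, and of the stellate and fibroblast markers 4 of 6 fell and 0 rose in MCAD-/-, and 1 fell and 2 rose in wild type. Clec4g exceeded 16 units on 14 of the 20 arrays, Cdh5 and Lrat on 15 and Col1a2 on 13. The filter may thus have borne on the endothelial and stellate counts as well. Among all tested genes 27.6% fell and 38.1% rose in MCAD-/-, and 24.0% fell and 40.0% rose in wild type. The part of these cell types in the falls of the metabolic genes was not tested.

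**Figure D1:**
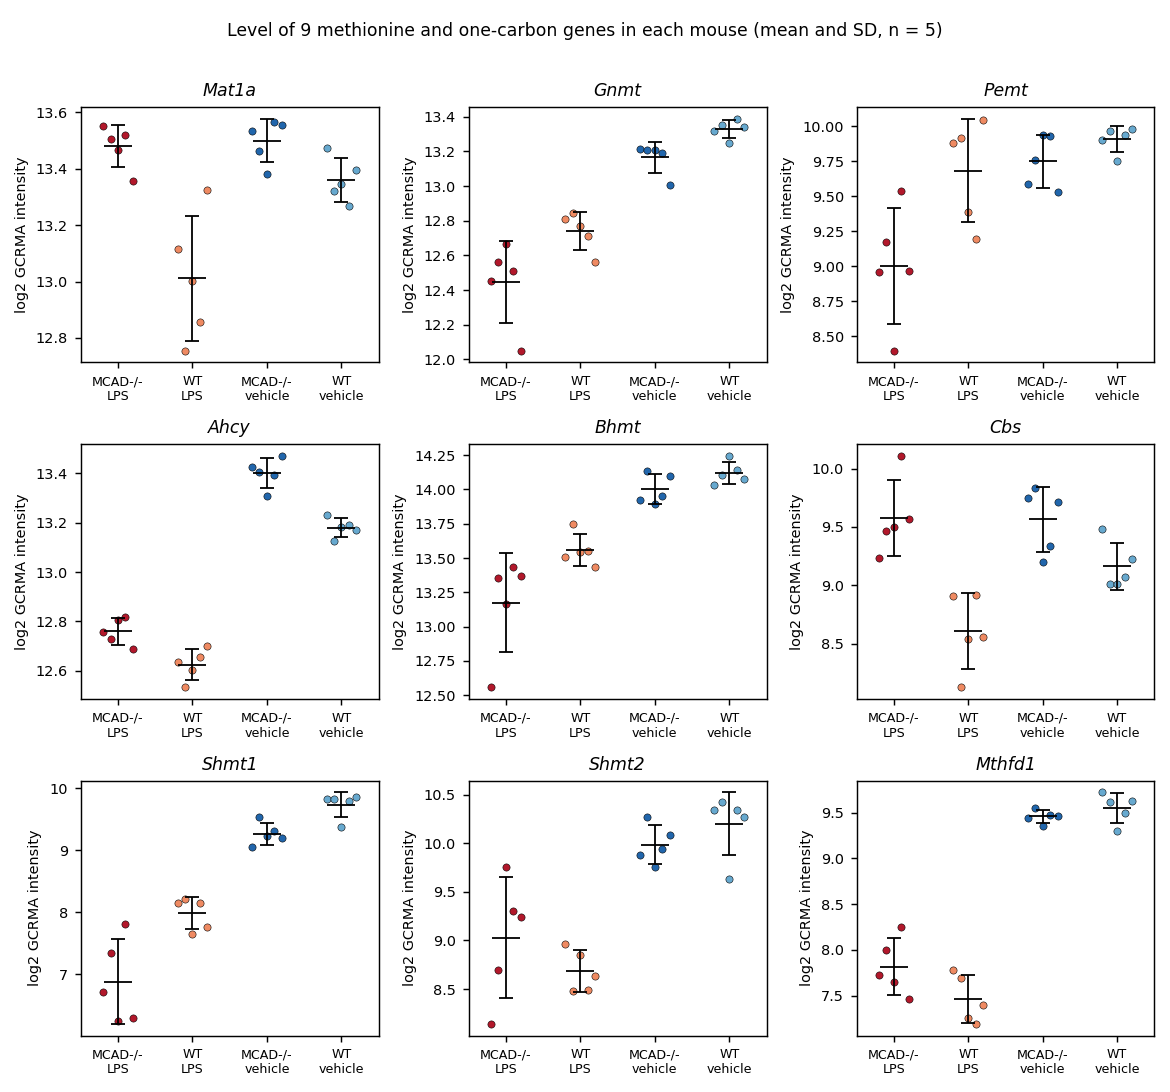
Level of each of the 9 measured genes in each mouse (y axis, log2 GCRMA intensity, a separate range per panel) by group (x axis), with the mean and SD of 5 mice as bars. Mthfd1, Shmt1 and Ahcy show a wide gap between the LPS groups on the left and the vehicle groups on the right, while Mat1a and Cbs are low only in the wild type LPS group.

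Mat1a, which encodes the liver enzyme that makes S-adenosylmethionine, read 12017, 11630.3, 11336, 11744 and 10493 units in MCAD-/- mice with LPS, against 8883, 6907, 8202, 7415 and 10260.3 units in wild type mice with LPS. With vehicle it read 11859, 11290.1, 10685, 12129.6 and 12044 units in MCAD-/- mice, against 11380.3, 10228, 10408, 9872 and 10774 units in wild type mice. All 5 MCAD-/- mice with LPS lay above all 5 wild type mice with LPS, by a narrow margin over wild type replicate 5, and the vehicle groups overlapped. The LPS difference between genotypes was 1.39-fold (log2 change 0.47 ± 0.10, SE; adjusted p = 0.00176). In wild type mice Mat1a fell by 0.35 ± 0.10 with LPS on the log2 scale (adjusted p = 0.00384), and in MCAD-/- the change was -0.02 (95% interval -0.22 to 0.18; adjusted p = 0.868). Both of the called differences were under 1.5-fold.

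Gnmt encodes glycine N-methyltransferase, an abundant liver enzyme that spends S-adenosylmethionine on glycine and so limits its excess. It read 4239.5 to 6492 units (median 5824) in MCAD-/- mice with LPS, against 6053 to 7343 units (median 6973) in wild type mice with LPS. With vehicle it read 8233 to 9485 units (median 9464) in MCAD-/- mice, against 9713 to 10713 units (median 10369) in wild type mice. Every LPS mouse lay below every vehicle mouse of its genotype. LPS lowered Gnmt 1.65-fold in MCAD-/- (log2 change -0.72 ± 0.10, SE; adjusted p = 4.28e-06) and lowered it in wild type too (log2 change -0.59 ± 0.10; adjusted p = 4.63e-05). Between genotypes the vehicle groups did not overlap, with MCAD-/- lower, yet the difference did not pass the test (log2 change -0.16; adjusted p = 0.314). With LPS the groups overlapped and Gnmt was 1.22-fold lower in MCAD-/- (adjusted p = 0.0479), a call that ended in 13 of 23 other settings. Without MCAD-/- LPS replicate 5, the lowest mouse, the log2 difference was -0.19 (adjusted p = 0.139).

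Pemt, which methylates phosphatidylethanolamine to phosphatidylcholine and is a major user of methyl groups in liver, read 497, 577, 337, 743 and 499.6 units in MCAD-/- mice with LPS, against 941, 964, 670.3, 585 and 1053 units in wild type mice with LPS. With vehicle it ranged from 739 to 980.1 units in MCAD-/- mice and from 862 to 1008 units in wild type mice. Pemt fell with LPS in MCAD-/- by 0.74 ± 0.18 on the log2 scale (adjusted p = 0.00126), with MCAD-/- replicate 4 just above the lowest vehicle mouse. In wild type it was the 1 member whose change did not pass (log2 change -0.22, 95% interval -0.60 to 0.15; adjusted p = 0.285). With LPS, Pemt was 1.60-fold lower in MCAD-/- than in wild type (log2 change -0.68 ± 0.18, SE; adjusted p = 0.0112), though the groups overlapped. In a fit of the LPS mice alone that call ended (adjusted p = 0.062).

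Ahcy encodes the hydrolase that clears S-adenosylhomocysteine, the product and inhibitor of methyl transfer. It read 6913, 6788, 7168, 7220.5 and 6592 units in MCAD-/- mice with LPS, against 6356, 5924, 6213, 6446 and 6649.5 units in wild type mice with LPS. With vehicle it read 10999, 10849, 10135, 10769.5 and 11364 units in MCAD-/- mice, against 9611, 8943, 9286, 9356 and 9220.0 units in wild type mice. Its standard error was the smallest of the 9 genes, and LPS and vehicle mice were far apart in both genotypes. LPS lowered Ahcy 1.56-fold in MCAD-/- (log2 change -0.64 ± 0.07, SE; adjusted p = 1.65e-07) and 1.47-fold in wild type (-0.56 ± 0.07; adjusted p = 1.14e-06). With vehicle all 5 MCAD-/- mice lay above all wild type mice, by 1.17-fold (log2 change 0.22 ± 0.07; adjusted p = 0.0374). This call ended in 11 of 23 other settings, among them 7 of the 10 that leave out 1 mouse. Those were MCAD-/- replicates 1, 2, 4 and 5 and wild type replicates 2, 4 and 5, and the log2 difference without each was 0.20 to 0.22. The highest adjusted p was 0.0884, without wild type replicate 2. With LPS the genotypes overlapped and Ahcy did not pass (log2 change 0.14; adjusted p = 0.189).

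At homocysteine the pathway divides into remethylation and transsulfuration. Bhmt, which remethylates homocysteine with betaine, read 6026, 10452, 9167, 11088 and 10584 units in MCAD-/- mice with LPS, against 11650.4, 13745, 11952, 12030.1 and 11064 units in wild type mice with LPS. With vehicle it ranged from 15238 to 18030.4 units in MCAD-/- mice and from 16794 to 19449 units in wild type mice. LPS mice lay below vehicle mice throughout. LPS lowered Bhmt 1.77-fold in MCAD-/- (log2 change -0.83 ± 0.13, SE; adjusted p = 1.65e-05) and 1.48-fold in wild type (-0.56 ± 0.13; adjusted p = 0.000865). With LPS it was lower in MCAD-/- than in wild type (log2 change -0.38 ± 0.13, SE; adjusted p = 0.0433), and that call ended in 11 of 23 other settings. Without MCAD-/- LPS replicate 1, the lowest mouse, the difference was -0.23 (adjusted p = 0.104).

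Cbs, cystathionine beta-synthase, commits homocysteine to transsulfuration. It read 603, 709, 722, 1107 and 760.5 units in MCAD-/- mice with LPS, against 482, 279, 372, 483 and 378 units in wild type mice with LPS. With vehicle it read 859.7, 911, 587, 648 and 839.7 units in MCAD-/- mice, against 715, 518, 516, 539 and 599.7 units in wild type mice. The MCAD-/- mice with LPS all lay above the wild type mice with LPS and within or above the range of the vehicle groups. The difference between genotypes with LPS was 1.95-fold (log2 change 0.97 ± 0.17, SE; adjusted p = 0.000545), and it passed in all 23 other settings. With vehicle the same difference was 0.40 ± 0.17 with overlapping groups and did not pass (adjusted p = 0.126). LPS lowered Cbs 1.47-fold in wild type (log2 change -0.55 ± 0.17; adjusted p = 0.00962), and in MCAD-/- the change was 0.01 (95% interval -0.35 to 0.38; adjusted p = 0.961).

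Among the 9 genes the folate enzymes Mthfd1, Shmt1 and Shmt2 fell furthest with LPS. Mthfd1, a cytosolic enzyme with several activities that interconverts one-carbon forms of folate, read 212, 256, 200.0, 305 and 176 units in MCAD-/- mice with LPS, against 694, 753, 657, 713 and 704 units with vehicle. In wild type mice it read 220.0, 206, 153, 146 and 169 units with LPS, against 846, 786, 629, 722 and 790.0 units with vehicle. The highest LPS mouse lay far below the lowest vehicle mouse in each genotype. The fall was 3.12-fold in MCAD-/- (log2 change -1.64 ± 0.14, SE; adjusted p = 5.68e-09) and 4.25-fold in wild type (-2.09 ± 0.14; adjusted p = 2.11e-10). Between genotypes Mthfd1 did not pass with LPS (log2 change 0.35; adjusted p = 0.0819) or with vehicle (-0.09; adjusted p = 0.717). The LPS difference passed in 3 other settings, among them without wild type replicate 1 (adjusted p = 0.0441) and without MCAD-/- replicate 5 (adjusted p = 0.0357).

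Shmt1 encodes the cytosolic serine hydroxymethyltransferase, which moves a carbon from serine to folate and makes glycine. It read 105, 163, 75.5, 224 and 78.3 units in MCAD-/- mice with LPS, against 530.2, 739, 600.0, 632 and 584 units with vehicle. In wild type mice it read 283, 295, 201, 285 and 217 units with LPS, against 904, 909.9, 665, 887 and 927 units with vehicle. LPS lowered it 5.21-fold in MCAD-/- (log2 change -2.38 ± 0.23, SE; adjusted p = 2.87e-08) and 3.37-fold in wild type (-1.75 ± 0.23; adjusted p = 1.79e-06). With LPS, 4 of the 5 MCAD-/- mice lay below every wild type mouse, and Shmt1 was 2.15-fold lower in MCAD-/- (log2 change -1.10 ± 0.23; adjusted p = 0.00187). With vehicle the difference of -0.47 did not pass (adjusted p = 0.179), and it passed in 2 other settings, with array weights and in a fit of the vehicle mice alone (adjusted p = 0.0196 and 0.021).

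Shmt2 encodes the mitochondrial serine hydroxymethyltransferase. It read 282, 414, 863, 631 and 607 units in MCAD-/- mice with LPS, against 944, 1232, 862, 980.4 and 1088 units with vehicle. In wild type mice it read 499.8, 358, 460.0, 359 and 398 units with LPS, against 1297, 1378, 791, 1295 and 1234 units with vehicle. MCAD-/- LPS replicate 3 reached the lowest vehicle mouse of its genotype, while the wild type groups were apart. The fall was 1.94-fold in MCAD-/- (log2 change -0.96 ± 0.23, SE; adjusted p = 0.000963) and 2.86-fold in wild type (-1.52 ± 0.23; adjusted p = 8.16e-06). Between genotypes Shmt2 did not pass with LPS (log2 change 0.34, 95% interval -0.13 to 0.81; adjusted p = 0.306) or with vehicle (-0.22; adjusted p = 0.578). Without MCAD-/- LPS replicate 1, its lowest mouse, the LPS difference was 0.57 and passed (adjusted p = 0.047).

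**Figure D2:**
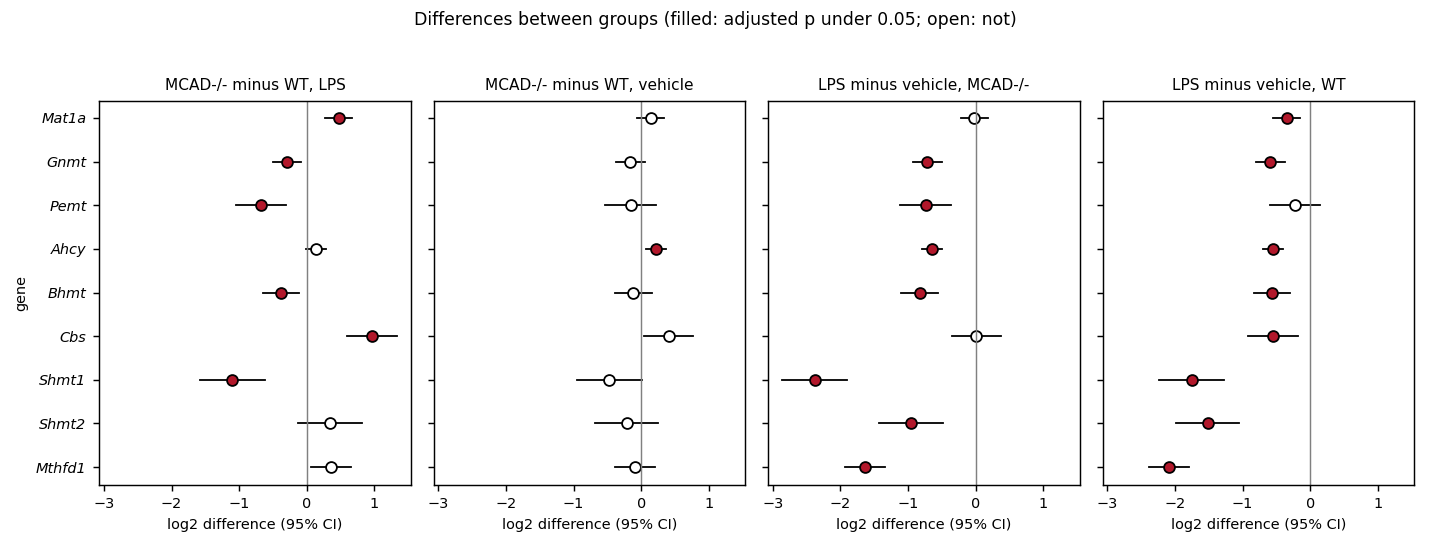
Log2 difference (x axis) of each gene (y axis) for 4 comparisons in panels, with 95% intervals from the limma model; filled points passed an adjusted p of 0.05. The right-hand panels, LPS minus vehicle, hold points at or left of 0.01, down to -2.38 for Shmt1 in MCAD-/-. In the panel of genotypes with LPS the filled points fall on both sides, from -1.10 for Shmt1 to 0.97 for Cbs.

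Counted over the 9 genes, the genotypes differed in 6 with LPS, 2 higher (Cbs and Mat1a) and 4 lower in MCAD-/- (Shmt1, Pemt, Bhmt and Gnmt), beside 8.75% higher and 11.8% lower among all tested genes. With vehicle 1 gene, Ahcy, was higher and 0 were lower, beside 9.81% and 6.39% of all genes; 2 had an unadjusted p under 0.05 with a higher level in MCAD-/-, Ahcy and Cbs. Between genotypes with LPS, MCAD-/- lay wholly above wild type for 2 genes, Mat1a and Cbs (5.44% of all genes). With vehicle it lay wholly above for 1, Ahcy (7.68%), and wholly below for 1, Gnmt (6.11%). LPS mice lay wholly below vehicle mice for 5 genes in MCAD-/- (21.7% of all genes) and for 7 in wild type (17.3%). In a fit of the LPS mice alone 3 genes in place of 6 passed between genotypes. Whether the genotype difference itself changed with LPS was tested by the interaction of genotype and treatment, taken as the change with LPS in MCAD-/- less the change with LPS in wild type. In the limma fit 0 of 9 genes passed (adjusted p from 0.182 to 0.683), where 4.11% of all genes did, and 3 had an unadjusted p under 0.05. Those were Mat1a (log2 difference 0.33, 95% interval 0.04 to 0.62), Cbs (0.56, 0.05 to 1.08) and Mthfd1 (0.45, 0.03 to 0.86). So the genotype differences with LPS were not shown to differ from those with vehicle.

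Markers of other cell types also differed between the genotypes with vehicle. Of the liver endothelial markers 7 of 8 tested were higher in MCAD-/- with vehicle and 0 lower, of the Kupffer and macrophage markers 6 of 9 and 0, and of the stellate and fibroblast markers 4 of 6 and 0. With vehicle the summed endothelial markers read 1606 to 2305 units in MCAD-/- mice, against 476.7 to 1089.6 units in wild type. The Kupffer markers then summed to 1692 to 2402 units in MCAD-/- mice, against 937 to 1721 units in wild type, and the stellate markers to 1939 to 2248 units in MCAD-/- mice, against 1066 to 1863 units in wild type. With LPS 1 of the 8 endothelial markers was lower in MCAD-/- and 0 higher, 2 of the 6 stellate markers were lower and 0 higher, and no call was made among the 9 Kupffer markers. Of the 4 tested neutrophil markers 1 was higher in MCAD-/- with LPS and 0 were lower. Among all tested genes with LPS 8.75% were higher and 11.8% lower, so the endothelial share was near that of all genes. With LPS the summed endothelial markers read 724 to 1239 units in MCAD-/- mice, against 859.7 to 1389 units in wild type mice, the Kupffer markers 591 to 1208 units in MCAD-/- against 509 to 1067 units in wild type, and the stellate markers 1788 to 2226 units in MCAD-/- against 700.4 to 2084 units in wild type. Dcn, with a mean of 1347 units over all arrays, was by far the brightest stellate marker in those sums. Pecam1, Col1a1 and Des were under 16 units on all arrays. The part of these cell types in the genotype differences of the members was not tested. For the 7 tested hepatocyte markers the median log2 difference between genotypes was 0.00 with LPS and 0.01 with vehicle.

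For 4 genes the array carries several probe sets, each a separate reading of the gene. All 18 probe sets of the 9 genes were lower with LPS in wild type, 17 of them past the threshold over all probe sets, and 17 of 18 were lower in MCAD-/-, 15 past it. The second probe set of Cbs had nearly the same genotype difference with LPS (log2 change 0.99 ± 0.18, SE, beside 0.97 ± 0.18 for the brightest in that fit). For LPS it had a log2 change of -0.42 in MCAD-/- (adjusted p = 0.051) and of -1.15 in wild type (adjusted p = 2.33e-05), so the value near 0 in MCAD-/- is that of the brightest probe set. All 4 probe sets of Shmt1 fell with LPS, from -2.65 to -1.87 in MCAD-/- and from -2.70 to -1.75 in wild type. Between genotypes with LPS they differed: 3 were lower in MCAD-/- (-1.60, -0.83 and -1.10, all past the threshold) and 1 did not pass (-0.02; adjusted p = 0.976). With vehicle 2 of the dimmer Shmt1 probe sets passed as lower in MCAD-/- (log2 changes of -1.19 with adjusted p = 0.0479 and -0.78 with adjusted p = 0.0208), while the brightest did not. The 4 probe sets of Shmt2 and the 3 of Mthfd1 all fell with LPS in both genotypes, with the dimmest of each showing smaller changes. The brightest Shmt2 probe set carries the suffix that Affymetrix gives to sets whose probes may bind other transcripts, and the brightest Cbs set the suffix for sets shared by several transcripts.

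**Figure D3:**
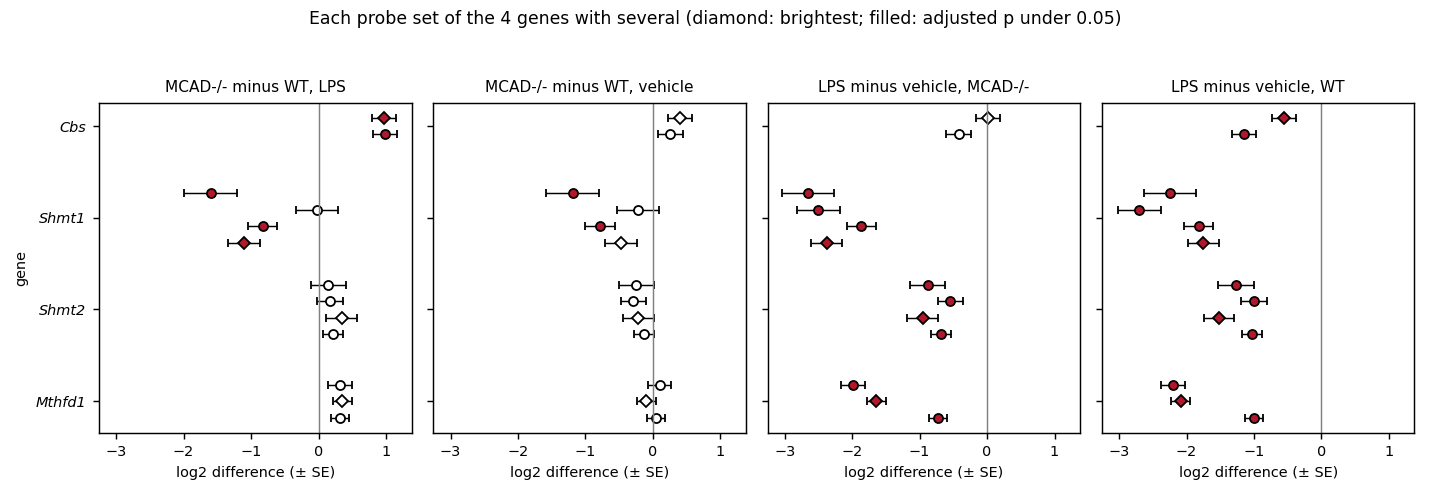
Log2 difference ± SE (x axis) of every probe set of the 4 genes with several (y axis), in the same 4 comparisons; diamonds are the brightest sets and filled symbols passed an adjusted p of 0.05 over all probe sets. Probe sets of a gene differ in size for LPS minus vehicle, with the 3 Mthfd1 sets at -1.99, -1.64 and -0.73 in MCAD-/-, and 1 of the 4 Shmt1 sets stands at -0.02 between genotypes with LPS while the others lie from -1.60 to -0.83.

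Ratios of members within each mouse show unequal change between steps of the pathway; the pairs were chosen after the values were seen and are given without a test. On the log2 scale, with the mean of wild type mice with vehicle at 0, the ratio of Mat1a (synthesis of S-adenosylmethionine) to Gnmt (its use) ran from 0.77 to 1.27 in MCAD-/- mice with LPS, against -0.12 to 0.73 in wild type mice with LPS. With vehicle it ran from 0.14 to 0.52 in MCAD-/- mice, against -0.15 to 0.13 in wild type mice. The ratio of Cbs to Bhmt, transsulfuration to remethylation, averaged 1.36 ± 0.26 in MCAD-/- mice with LPS and 0.01 ± 0.41 in wild type mice with LPS (SD, n = 5 each), with no overlap. With vehicle it averaged 0.53 ± 0.22 in MCAD-/- mice and 0.00 ± 0.27 in wild type mice, and these overlapped. The ratio of mitochondrial Shmt2 to cytosolic Shmt1 ran from 0.88 to 3.05 in MCAD-/- mice with LPS, against -0.19 to 0.73 in wild type mice with LPS. The wild type mean of that ratio was 0.23 higher with LPS than with vehicle, and 0.93 higher with the mean of each gene's probe sets in place of the brightest. The ratio of Mat1a to Pemt ran from 0.53 to 1.62 in MCAD-/- mice with LPS, against -0.61 to 0.21 in wild type mice with LPS. In all 4 ratios the MCAD-/- mice with LPS were the highest group, and every mouse of that group lay above every wild type mouse with LPS. This order follows largely from the choice of pairs. Between genotypes with LPS, Mat1a and Cbs were called higher in MCAD-/-, and Gnmt, Bhmt, Pemt and Shmt1 were called lower.

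**Figure D4:**
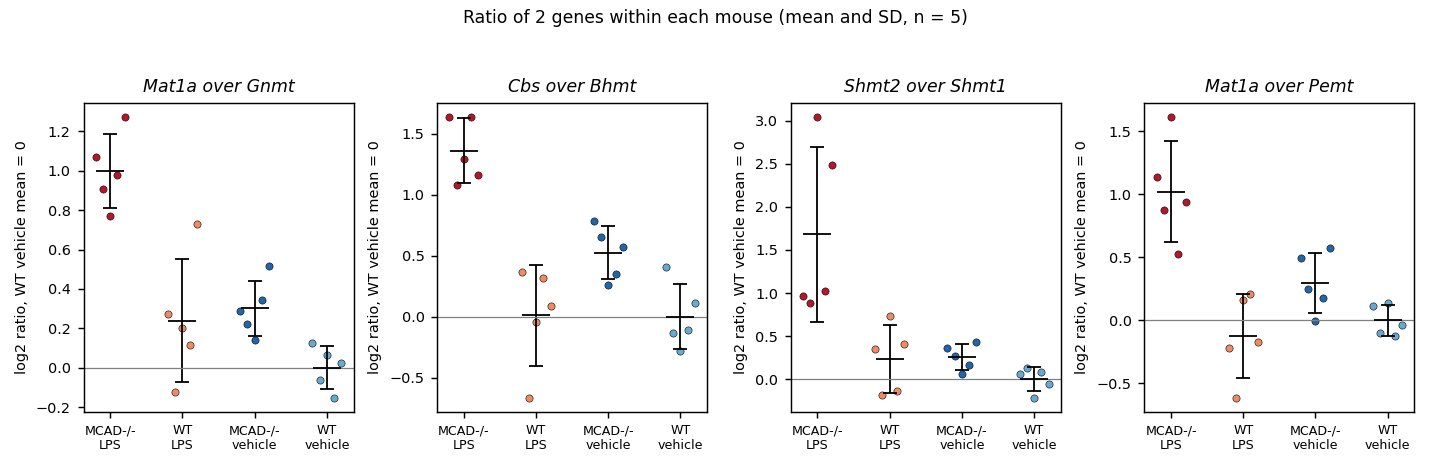
Log2 ratio of 2 genes within each mouse (y axis, wild type vehicle mean set to 0) by group (x axis), with the mean and SD of 5 mice. The MCAD-/- LPS group is highest in each panel, with means of 1.00, 1.36, 1.68 and 1.02 from left to right. The pairs were chosen after the values were seen, so this order follows largely from the choice.

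The rest of the pathway was read from a list of 87 other genes in 7 subgroups, of which 68 were tested, 9 were below the filter and 10 had no probe set named with that symbol alone. Psat1, Mthfd2 and Mthfd1l lay at or under 16 units on every array of at least 1 vehicle group and entered the test through arrays where they were higher, so the LPS counts leave them out where they did. With LPS 32 of 66 fell and 15 rose in MCAD-/- (median log2 change -0.24), and 30 of 65 fell and 14 rose in wild type (median -0.31). All tested genes, without such an exclusion, had 27.6% lower and 38.1% higher in MCAD-/-, and 24.0% lower and 40.0% higher in wild type. Between genotypes with LPS 8 of the 68 were higher and 5 lower in MCAD-/-, beside 8.75% and 11.8% of all genes. With vehicle 5 were higher and 3 lower, beside 9.81% and 6.39%, so these shares were near those of all genes. By subgroup with LPS, 4 of 10 transsulfuration and sulfur genes and 3 of 14 methyl-transfer genes were higher and 0 lower. Of 12 folate genes 1 was higher and 2 were lower, and no choline gene was called. The glycine, salvage and cobalamin subgroups each had 0 higher and 1 lower. With vehicle 4 methyl-transfer genes were higher and 1 lower, 1 transsulfuration gene was higher, and 1 folate and 1 salvage gene were lower.

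Genes of glycine, serine and betaine handling mostly fell with LPS. In MCAD-/- 7 of 9 fell and 1 rose (median log2 change -1.18), beside 27.6% and 38.1% of all tested genes. In wild type 8 of 9 fell and 1 rose (median -0.97), beside 24.0% and 40.0%. Gcsh, the carrier protein of the glycine cleavage system, had log2 changes of -1.59 in MCAD-/- and -1.17 in wild type. Sardh, which oxidises the sarcosine that Gnmt makes, had log2 changes of -1.96 in MCAD-/- and -1.64 in wild type. Pipox, another sarcosine oxidase, had -1.77 in MCAD-/- and -1.79 in wild type, and all 3 genes passed in both. The gene that rose was Psph, an enzyme of serine synthesis. Psat1, another, is not counted: it read 18.3 to 102 units in MCAD-/- mice with LPS, against 5.16 to 7.04 units with vehicle, and 40.8 to 59.7 units in wild type mice with LPS, against 4.56 to 5.26 units with vehicle.

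Of the transsulfuration and sulfur oxidation genes 6 of 10 fell with LPS in MCAD-/- and 0 rose, beside 27.6% and 38.1% of all tested genes. In wild type 8 fell and 1 rose, beside 24.0% and 40.0%. Cth, the enzyme that follows Cbs and releases cysteine, fell 3.76-fold in MCAD-/- (adjusted p = 5.46e-06) and 5.88-fold in wild type (adjusted p = 1.45e-07). Ethe1, a mitochondrial enzyme of sulfide oxidation, fell 2.97-fold in MCAD-/- and 2.54-fold in wild type, and Suox, sulfite oxidase, 3.02-fold in MCAD-/- and 3.65-fold in wild type. Between genotypes with LPS 4 of the 10 were higher in MCAD-/- and 0 lower, where 8.75% of all genes were higher. Cth was 2.98-fold higher (1110 units in MCAD-/- against 373 units in wild type; adjusted p = 0.000389). Gclc, the catalytic subunit of the enzyme that limits glutathione synthesis, was 1.80-fold higher (696 units in MCAD-/- against 386 units in wild type; adjusted p = 0.000182), and Cdo1, which oxidises cysteine, 1.40-fold (adjusted p = 0.0112). With vehicle 1 of the 10 was higher and 0 were lower, where 9.81% of all genes were higher, so this share is near that of all genes. The gene was Cth (4178 units in MCAD-/- against 2194 units in wild type, 1.90-fold, adjusted p = 0.0257). That vehicle call ended without MCAD-/- replicate 1 or 4 or wild type replicate 2 or 4 (adjusted p from 0.0521 to 0.0726).

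The other methyl-transfer genes went both ways with LPS. In MCAD-/- 7 of 14 were lower and 6 higher, beside 27.6% and 38.1% of all tested genes. In wild type 5 were lower and 5 higher, beside 24.0% and 40.0%. Hnmt, which methylates histamine, fell in both genotypes to levels near the limit of measurement. It read 11.1 to 17.3 units in MCAD-/- mice with LPS, against 122 to 236 units with vehicle, and 11.6 to 35.98 units in wild type mice with LPS, against 168 to 220.2 units with vehicle. With LPS 1 of 5 MCAD-/- arrays and 3 of 5 wild type arrays exceeded 16 units. Gamt, which makes creatine and is another large user of methyl groups, fell 5.98-fold in MCAD-/- and 4.40-fold in wild type. Among the genes that rose, Prmt1 rose 1.98-fold in MCAD-/- and 2.25-fold in wild type. Nnmt rose 1.99-fold in MCAD-/- and 2.53-fold in wild type. Between genotypes Nnmt, which methylates nicotinamide, was higher in MCAD-/- with both injections, 1.57-fold with LPS (9163 units in MCAD-/- against 5853 units in wild type; adjusted p = 0.0152) and 1.99-fold with vehicle (4600.5 units in MCAD-/- against 2316 units in wild type; adjusted p = 0.000692). Mtrr, the reductase that keeps methionine synthase active, was 1.58-fold higher with LPS (adjusted p = 0.00455) and 1.95-fold with vehicle (adjusted p = 0.000173), with group means of only 16.6 to 45.9 units.

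Among folate transport and other folate enzymes 3 of 11 fell and 3 rose with LPS in MCAD-/-, beside 27.6% and 38.1% of all tested genes. In wild type 2 of 10 fell and 1 rose, beside 24.0% and 40.0%. The shares that fell were near those of all genes. Slc19a1, the reduced folate carrier, fell 2.15-fold in MCAD-/- and 2.30-fold in wild type, and was lower in MCAD-/- than in wild type with LPS (1.44-fold; adjusted p = 0.00828) and with vehicle (1.55-fold; adjusted p = 0.0028). Slc46a1, the proton-coupled folate transporter, fell 3.21-fold in MCAD-/- and 2.56-fold in wild type. Mthfd2, a mitochondrial folate dehydrogenase, is not counted: it read 15.96 to 78.6 units in MCAD-/- mice with LPS, against 4.50 to 6.67 units with vehicle, and 10.9 to 32.5 units in wild type mice with LPS, against 4.32 to 6.94 units with vehicle. Ftcd, which passes a carbon from histidine to folate, was lower in MCAD-/- with LPS (1429 units in MCAD-/- against 2137 units in wild type; adjusted p = 2.94e-05) and passed the interaction test.

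Of the choline and phosphatidylcholine genes 5 of 7 fell and 1 rose with LPS in MCAD-/-, beside 27.6% and 38.1% of all tested genes. In wild type 3 fell and 1 rose, beside 24.0% and 40.0%. Chpt1, which joins choline to diacylglycerol in the route parallel to Pemt, fell 3.27-fold in MCAD-/- and 2.94-fold in wild type. Chka, choline kinase, rose 2.80-fold in MCAD-/- and 2.74-fold in wild type. Of the polyamine and salvage genes 3 of 10 fell and 3 rose in MCAD-/-, and 3 fell and 4 rose in wild type. These shares were near those of all genes. Adi1, a methionine salvage enzyme, fell 4.38-fold in MCAD-/- and 4.72-fold in wild type. Mtap, another salvage enzyme, was 2.94-fold lower in MCAD-/- with vehicle (71.5 units in MCAD-/- against 210.1 units in wild type; adjusted p = 2.39e-06), a call that held in all 23 other settings, and did not pass with LPS (log2 change -0.49; adjusted p = 0.0532). Of the 5 cobalamin genes Mmadhc rose and Tcn2 fell in both genotypes. Genes of the subgroups are named for having among the 3 smallest adjusted p of their subgroup in some comparison, except Psat1 and Psph, which were named after their values were seen.

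**Figure D5:**
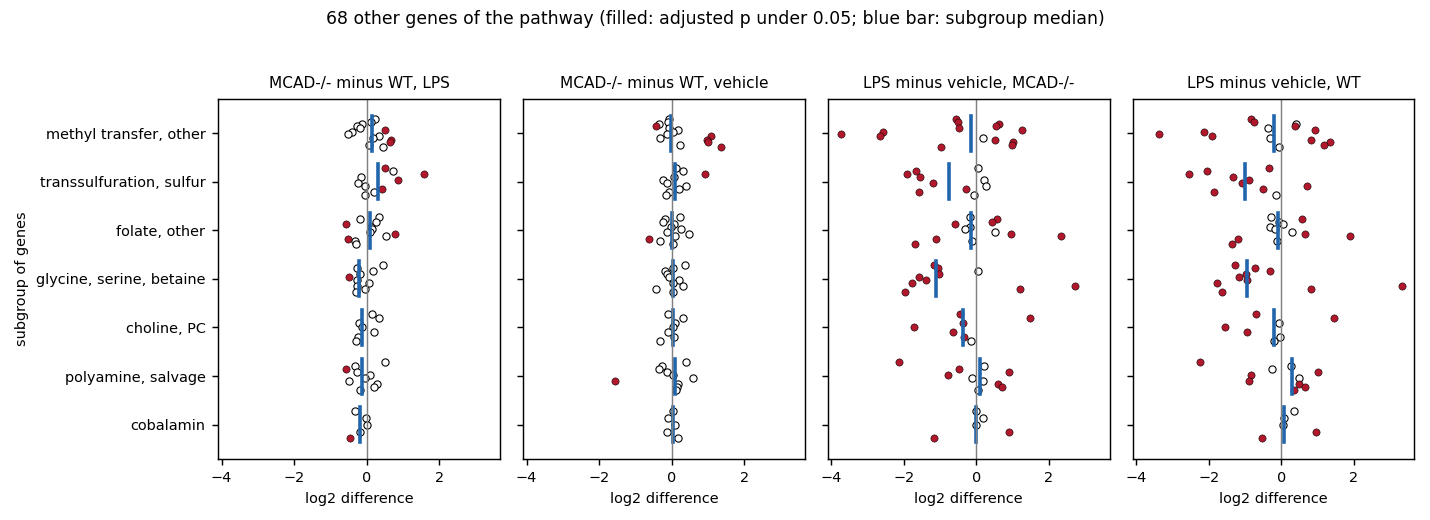
Log2 difference (x axis) of 68 other genes of the pathway by subgroup (y axis) in the same 4 comparisons; filled points passed an adjusted p of 0.05 and blue bars mark subgroup medians. For LPS minus vehicle the medians of glycine, serine and betaine genes stand, over all points plotted, at -1.11 in MCAD-/- and -0.95 in wild type, and those of transsulfuration and sulfur oxidation at -0.75 in MCAD-/- and -0.99 in wild type.

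The tested genes closest to a member were found by the root mean square difference between log2 values, each centred on its own mean over the 20 arrays. For Mat1a these were Hipk3 (0.12) and Mtpn (0.13), for Gnmt Gins4 (0.10) and Slc49a4 (0.13), and for Bhmt Pgrmc1 (0.14) and Srr (0.15). These genes were picked for their likeness over the same 20 arrays, so similar group differences follow from the choice. The log2 differences of Hipk3 between genotypes were 0.54 with LPS and 0.06 with vehicle. Its changes with LPS were -0.09 in MCAD-/- and -0.57 in wild type. Pgrmc1, picked for its likeness to Bhmt, had changes with LPS of -0.76 in MCAD-/- and -0.58 in wild type.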

How the data were processed

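Liver RNA of 20 mice was measured, 5 in each of 4 groups, taken from the genotype and treatment labels. The deposited values are intensities made by the authors with GCRMA, per the submitters' processing notes: background corrected, normalized between arrays and summarised per probe set, on a linear scale. No source used here gives its version or settings, and the number of arrays limits the precision. Of 45101 probe sets 34945 have 1 gene symbol in the platform annotation, 932 have several, and 64 are controls. Here log2 values were taken without a pseudocount, each gene was read from its brightest probe set, and genes over 16 units on at least 5 arrays were kept. A limma model (version 3.58.1, R 4.3.3) with 4 group means was fitted to 8774 genes, with Benjamini-Hochberg adjustment over all of them and a threshold of 0.05, for 5 comparisons. The model was tested on simulated data. Named were all members, the 2 genes most like Mat1a, Gnmt and Bhmt, and Acadm. Subgroup genes other than Psat1 and Psph came from the up to 3 per subgroup and comparison with the smallest adjusted p. Not every gene that met this rule is named. The members and gene lists were chosen with earlier results of these data known. No pair of arrays held identical values. Mice were treated as unpaired. Of 30 pairs with the same replicate number 7 had a correlation of deviations over 0.1 (range -0.12 to 0.28). Pairs with different numbers were not compared, so this check cannot decide whether the numbers mark a pairing or a batch. Alternatives covered the filter, probe sets, scaling, pseudocount, prior, array weights, samples fitted, replicate block, a 1.5-fold minimum and each mouse left out.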

Additional observations from a re-analysis of the deposited data

Results flagged for a closer look

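In 36 groups of 5 mice, 9 genes in 4 groups, 3 values, from 2 mice, lay far from the other 4 of their group; chance gives about 1 in 20 groups. Gnmt read 8232.8 units in MCAD-/- vehicle replicate 5, against 9349 to 9485 units in the others. Shmt1 read 664.92 units in wild type vehicle replicate 3, against 887 to 927 units in the others, and Shmt2 read 791.27 units in the same mouse, against 1234 to 1378 units. That array also had the second highest actin 3' to 5' ratio, and its part in these values was not tested.

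The LPS response differed between genotypes for 3 of the 68 tested genes of the wider pathway by the limma interaction test, where 4.11% of all genes did, so the share is near that of all genes. For Gclc the log2 difference of responses was 1.0986 (adjusted p = 0.00264): it read 542 to 779 units in MCAD-/- with LPS, against 526 to 690 units with vehicle, and 270 to 467 units in wild type with LPS, against 662 to 818 units with vehicle. For Ftcd it was -0.6492 (adjusted p = 0.00246): 1340 to 1581 units in MCAD-/- with LPS, against 2001 to 2282 units with vehicle, and 1878 to 2332 units in wild type with LPS, against 1904 to 2135 units with vehicle. For Mtap, a methionine salvage enzyme, it was 1.0609, with 65.8 to 95.5 units in MCAD-/- with LPS, against 58.6 to 87.1 units with vehicle, and 66.9 to 143 units in wild type with LPS, against 162 to 244 units with vehicle.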

How the results depend on the processing

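Of 22 calls of members 13 passed in every setting tried and 9 were lost in at least 1, and of 61 calls in the wider list 50 passed in every setting. Of the 9 members 0 passed between genotypes with vehicle under further quantile normalization, the replicate block and a 1.5-fold minimum, and 3 passed with array weights, against 1 as reported. Between genotypes with LPS 3 passed with the compared groups alone and 3 at a 1.5-fold minimum, and in wild type 4 passed for LPS at that minimum. Leaving out 1 mouse gave 0 to 1 members between genotypes with vehicle, 4 to 6 between genotypes with LPS, 7 for LPS in MCAD-/-, 8 for LPS in wild type and 0 for the interaction. Over all genes it gave 1045 to 1397 calls between genotypes with vehicle, 1371 to 1765 with LPS, 5462 to 5683 for LPS in MCAD-/-, 5344 to 5607 in wild type and 262 to 468 for the interaction. The interaction had 361 calls as reported, 236 under the stricter filter and 879 with array weights. With each probe set on its own there were 2852 calls between genotypes with LPS, 9528 for LPS in MCAD-/- and 9334 in wild type. Array weights gave 2855 calls between genotypes with vehicle, and a 1.5-fold minimum 1100 between genotypes with LPS. The values that changed sign were not called. The log2 change of Mthfd1 between genotypes with vehicle was 0.0164 with the mean of its probe sets. That of Cbs for LPS in MCAD-/- was -0.21 with the mean of its probe sets, -0.0517 with array weights, and -0.12 (without MCAD-/- LPS replicate 4) to 0.0959 with 1 mouse left out. That of Mat1a for LPS in MCAD-/- was 0.0157 with each array centred, and -0.0489 to 0.0112 with 1 mouse left out. The wild type LPS change of the Shmt2 to Shmt1 ratio was 0.93 with the mean of probe sets, against 0.23. The replicate block ended the call of Ahcy between genotypes with vehicle (log2 change 0.22, adjusted p = 0.0604) and changed no other call of a member. Without both arrays of high actin ratio, a setting chosen after seeing the data, Gnmt and Bhmt between genotypes with LPS no longer passed (adjusted p = 0.0526 and 0.0597). The causes were not tested.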
